A study of Homo sapiens with 2 samples.

Results

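The 10 genes described here encode the 3 D cyclins (CCND1, CCND2 and CCND3), the 2 G1 kinases that they activate (CDK4 and CDK6), the CDK inhibitors CDKN1A, CDKN1B, CDKN2A and CDKN2C, and the retinoblastoma protein (RB1). They were chosen by name and all 10 are among the 57485 genes of the deposited tables. ARP1 is an established human multiple myeloma (MM) line, and the cells, labelled ARP1_KD-SRD5A1, carried a lentiviral short hairpin against SRD5A1, a steroid 5α-reductase, that is transcribed when doxycycline (Dox) is present. RNA was sequenced in 1 library of untreated cells and 1 library of cells given Dox, so both groups carry the hairpin, Dox-treated cells lacking it were not analysed here, and no difference below has a replicate check. Under genotype, the Dox library carries the name SRD5A2, although title and design text both name SRD5A1. The study's methods state that mRNA was pooled before cDNA synthesis, without saying of what. The Dox dose and exposure of these libraries, and whether the cells were 1 clone, were not given in the sources used here.

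The libraries held 45918570 expected counts without Dox and 48728927 with Dox, and 3 counts equalled 0.0653 and 0.0616 CPM (counts scaled to the library total). The hairpin's target did not follow its label, as SRD5A1 had 1375 counts and 13.04 FPKM without Dox against 3014 counts and 25.88 FPKM with Dox, so every direction given here rests on the labels. Across the 9 plasma cell markers examined, including SDC1, IRF4 and JCHAIN, the FPKM lay between 15.73 and 5444.03, while none of the 5 T cell, 4 monocyte or 4 fibroblast markers reached 1 FPKM. Of the 4 epithelial markers, 3 reached 1 FPKM, the highest being 6.0 FPKM of KRT18 without Dox.

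In G1, extracellular growth signals raise the D cyclins, which bind and activate CDK4 and CDK6, and these kinases phosphorylate the retinoblastoma protein so that E2F factors can switch on the genes of S phase. The INK4 inhibitors (encoded by CDKN2A, CDKN2B, CDKN2C and CDKN2D) bind CDK4 and CDK6 alone, whereas the CIP/KIP inhibitors (encoded by CDKN1A, CDKN1B and CDKN1C) bind cyclin-CDK complexes. Raised expression of a D cyclin, through a translocation or otherwise, is a near general feature of MM, and CCND2 is a known target of the transcription factor MAF.

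CCND2 was the leading D cyclin of this line in both libraries. Levels are given as FPKM, fragments scaled to effective transcript length and library depth, which allows genes to be compared per length. CCND2, which encodes cyclin D2 (ENSG00000118971.7, forward strand of chromosome 12 from 4273772 to 4305350; all gene positions are those of GENCODE release 29 on GRCh38), was listed at 148.55 FPKM without Dox and 142.31 FPKM with Dox. These levels exceeded those of 94.5% and 95.1% of the genes with at least 1 FPKM in the respective library. CCND3, which encodes cyclin D3 (ENSG00000112576.12, reverse strand of chromosome 6 from 41934933 to 42050357), was listed at 27.61 and 13.67 FPKM. CCND1, which encodes cyclin D1 (ENSG00000110092.3, forward strand of chromosome 11 from 69641087 to 69654474), was listed at 3.40 and 2.21 FPKM. The order CCND2, CCND3, CCND1 was the same in the 2 libraries, and the counting intervals of the 3 shares given next do not overlap.

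**Figure D1:**
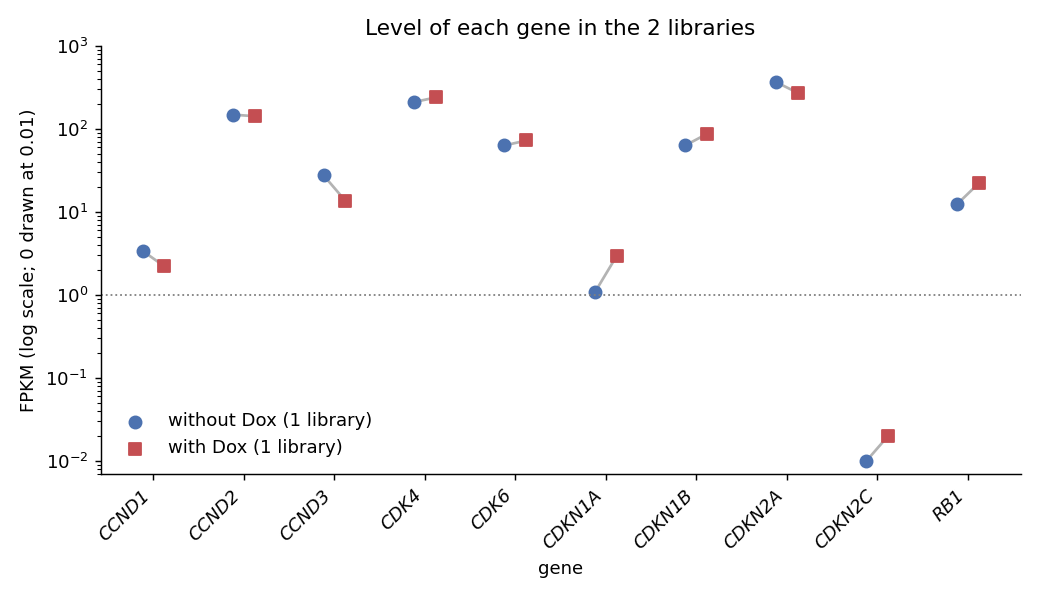
Level of each of the 10 genes in FPKM on a log axis, with 1 point per library, circles without Dox and squares with Dox; the dotted line marks 1 FPKM. CDKN2A, CDK4 and CCND2 lie above 100 FPKM in both libraries, and CDKN2C lies at the bottom at 0 and 0.02 FPKM.

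CCND2 made up 82.7% of the summed D cyclin FPKM without Dox and 90.0% with Dox. CCND3 made up 15.4% and 8.64%, and CCND1 1.89% and 1.40%, respectively. Per length, CCND2 RNA stood 5.38-fold above CCND3 without Dox and 10.4-fold above it with Dox, and 43.7-fold and 64.4-fold above CCND1. Counts with no length correction weight the long CCND2 transcript more heavily, and there the CCND2 share was 93.6% (exact binomial 95% interval 93.4 to 93.8 of 38945 counts) without Dox and 96.5% (96.3 to 96.7 of 43432 counts) with Dox. The intervals cover counting error only. CCND3 held 5.36% (5.14 to 5.59) and 2.54% (2.39 to 2.69) of these counts, and CCND1 1.03% (0.937 to 1.14) and 0.965% (0.875 to 1.06). By either quantity, the share of CCND2 was larger in the library labelled with Dox.

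The genes that myeloma translocations place under an immunoglobulin enhancer were examined next, as several of them lie upstream of CCND2. MAF, the transcription factor activated in t(14;16), was listed at 37.55 FPKM without Dox and 52.39 with Dox. Its known targets ITGB7, an integrin subunit, and CCR1, a chemokine receptor, were listed at 606.32 and 83.70 FPKM without Dox. With Dox, ITGB7 stood at 391.65 and CCR1 at 39.02 FPKM. NSD2, the histone methyltransferase of t(4;14), was listed at 65.49 and 89.30 FPKM, whereas FGFR3, its partner in that translocation, stayed under 1 FPKM at 0.52 and 0.98. MAFA had 1 count without Dox and 0 with Dox. FGF19, next to CCND1, had 0 counts in both libraries. Of this list of 7 genes, 4 were tested, with a median log2 ratio of -0.09. Past 2-fold, 0 lay upward and 1, CCR1, downward, beside 17.0% and 6.41% of all genes tested. Expression alone does not show a translocation, and none was tested for here.

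The log2 ratio of CCND2 turned its sign with the treatment of transcript length and with the scaling of the libraries. Each ratio is the log2 of FPKM in the Dox library divided by FPKM in the untreated one, after 0.1 was added to both, and the intervals beside them come from the 2 counts by the exact binomial method, without the pseudocount and with the lengths taken as known. CCND2 had a log2 ratio of -0.06 (counting interval -0.08 to -0.04) in FPKM but 0.12 in CPM. The ratio was 0.03 in TPM and, from counts, -0.09 with the TMM factors of edgeR, so scaling alone turned the sign too. The mean length that the tables list for CCND2 RNA, weighted by the share of each transcript, was 5587.00 bases without Dox and 6289.48 bases with Dox. The gene has 4 listed transcripts, a coding transcript of 6480 bases (ENST00000261254.7) and others of 322 to 572 bases, so the mean length bounds the share of the long one between 84.9% and 85.5% in untreated cells and between 96.8% and 96.9% in the Dox library. The long transcript alone then stood between 126.1 and 127.0 FPKM in untreated cells and between 137.7 and 137.9 FPKM in the Dox library, a log2 ratio of 0.12 to 0.13. The antisense gene CCND2-AS1 overlaps CCND2 by 2413 bases and had 22 and 79 counts, against 36455 and 41911 for CCND2.

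CCND1 showed a larger gap between FPKM and CPM. It had 403 counts without Dox and 419 with Dox, which gave a log2 ratio of -0.03 in CPM but -0.60 (counting interval -0.83 to -0.42) in FPKM. Its listed mean length was 2824.10 bases without Dox and 4144.43 bases with Dox, and the share of its coding transcript of 4307 bases (ENST00000227507.2) was bounded at 56.2% to 61.8% and 95.2% to 95.8%. That transcript stood between 1.91 and 2.1 FPKM in untreated cells and between 2.1 and 2.12 FPKM in the Dox library. What was lower in the Dox library was the FPKM assigned to the shorter listed transcripts, of 430 to 920 bases. Among the 11824 tested genes with at least 100 counts in both libraries, the median log2 ratio of mean length was 0, and 0.474% of the genes lengthened as much as CCND1 and 8.47% as much as CCND2. The lengths rest on how reads were apportioned among transcripts, an error that the tables do not give.

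CCND3 was the only D cyclin, and the only one of the 10 genes, to lie past 2-fold on the lower side with Dox, where 6.41% of all genes tested lay. It had 2087 counts without Dox and 1102 with Dox, and its log2 ratio was -1.01 (counting interval -1.12 to -0.91), just past the limit. In TPM, the same ratio was -0.91 and short of the limit. Its mean length hardly differed, at 1889.14 and 1899.98 bases. Of its 23 annotated transcripts, 13 start within the RefSeq promoter window that spans the first bases of the transcript as well as the stretch shown here, which runs on the reverse strand (GRCh38.p14) along chr6:42048689-42048938. Sequences are shown for the members past 2-fold and for CDK4; RefSeq windows were matched for 8 of the 10 genes. Each sequence is the 250 bases before the start, written 5′ to 3′, with the motifs found in capitals. The motifs searched on both strands were the GC box GGGCGG, the E-box CACGTG, the E2F motifs TTTGGCGC and TTTCGCGC, the cAMP response element TGACGTCA and the CHOP-ATF motif TGATGNAA. Of the 3 RefSeq windows of CCND3, which hold 0, 2 and 5 GC boxes, the one with most annotated starts is shown, and its capitals mark 5 GC boxes. GC boxes were found in 42.5% of the 34943 RefSeq windows of this length, and 5 or more in 4.12%.
CCND3: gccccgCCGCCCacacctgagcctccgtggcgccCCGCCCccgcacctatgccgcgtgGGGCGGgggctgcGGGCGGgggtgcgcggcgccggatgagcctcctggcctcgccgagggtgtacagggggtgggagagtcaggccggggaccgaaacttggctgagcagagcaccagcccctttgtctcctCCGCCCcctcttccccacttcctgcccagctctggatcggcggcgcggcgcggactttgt

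Both G1 kinases were highly expressed and differed little between the libraries. CDK4 (ENSG00000135446.16, reverse strand of chromosome 12 from 57747727 to 57756013) was listed at 210.62 FPKM without Dox and 239.35 with Dox, a log2 ratio of 0.18 (counting interval 0.14 to 0.22). CDK6 (ENSG00000105810.9, reverse strand of chromosome 7 from 92604921 to 92836594) was listed at 63.18 and 72.51 FPKM, a log2 ratio of 0.20 (0.18 to 0.22). The median log2 ratio of all 14859 genes tested, those reaching 1 FPKM in either library, was 0.15, so CDK4 and CDK6 stood 0.03 and 0.05 above it. With the TMM factors of edgeR the median of all genes was -0.04 and the value of CDK4 turned to -0.08, with CDK6 at 0.04. Per length, CDK4 RNA was 3.33-fold as abundant as CDK6 RNA without Dox and 3.30-fold with Dox. In counts the order was the other way round, with ratios of 0.315 and 0.289, because CDK6 has a transcript of 11612 bases. The 2 kinases together had 1.52-fold the FPKM of the 3 D cyclins without Dox and 1.97-fold with Dox.

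The stretch before the CDK4 start (reverse strand, chr12:57752311-57752560, GRCh38.p14) held 3 E-boxes, the motif bound by MYC, and 3 GC boxes. An E-box occurred in 6.32% of all windows and 3 or more in 0.0801%, or 28 windows. Of the 14 windows of members, 3 held an E-box, this one and windows of CDKN2C, which had 0 and 2 counts. The CDK4 stretch is shown for its E-boxes. The level of MYC, named after its value was seen, was 456.10 FPKM without Dox and 638.78 with Dox. TSPAN31 overlaps CDK4 by 2485 bases on the other strand and was listed at 10.06 and 16.21 FPKM. A motif match is not evidence of binding.
CDK4: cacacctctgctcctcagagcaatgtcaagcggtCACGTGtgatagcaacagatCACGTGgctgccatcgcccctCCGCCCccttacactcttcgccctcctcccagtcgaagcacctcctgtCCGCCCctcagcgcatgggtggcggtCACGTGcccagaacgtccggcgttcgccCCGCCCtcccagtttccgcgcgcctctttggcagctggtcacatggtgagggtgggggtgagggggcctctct

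Newly made CDK4 and CDK6 are folded by HSP90 with the co-chaperone CDC37, and all 3 genes of this list were lower in the library labelled with Dox. HSP90AB1 went from 1650.74 to 550.57 FPKM, a log2 ratio of -1.58. By FPKM it was the one past 2-fold on the lower side, where 6.41% of all genes tested lay. HSP90AA1 went from 176.19 to 90.86 FPKM and CDC37 from 229.13 to 122.22 FPKM, log2 ratios of -0.95 and -0.91, and the median of the list was -0.95. With TMM factors all 3 lay past 2-fold on the lower side, as did 9.11% of all genes tested.

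CDKN1A had the largest ratio of the 10 genes, at a low level. CDKN1A, which encodes p21 (ENSG00000124762.13, forward strand of chromosome 6 from 36676460 to 36687339), was listed at 1.08 FPKM and 95 counts without Dox and at 2.95 FPKM and 269 counts with Dox. Its log2 ratio was 1.37, and 1.45 with no pseudocount (counting interval 1.11 to 1.80). Even in the library labelled with Dox, its level exceeded that of only 20% of the genes with at least 1 FPKM, against 1.45% without Dox. A pseudocount of 1 FPKM, close to its level, brought the log2 ratio to 0.93. The stretch before the CDKN1A start (forward strand, chr6:36678464-36678713, GRCh38.p14) held 4 GC boxes, of which 2 overlap by 1 base. None of the other motifs was found there.
CDKN1A: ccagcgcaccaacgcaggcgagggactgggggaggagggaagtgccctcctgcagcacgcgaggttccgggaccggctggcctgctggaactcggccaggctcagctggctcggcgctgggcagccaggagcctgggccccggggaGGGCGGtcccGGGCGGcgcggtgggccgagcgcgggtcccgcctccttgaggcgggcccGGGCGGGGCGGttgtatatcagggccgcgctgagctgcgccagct

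Of the 10 listed regulators of CDKN1A, 7 were tested, and 3 of these were past 2-fold upward with Dox and 0 downward, with a list median of 0.71, beside 17.0% and 6.41% of all genes tested. DDIT3, the stress factor CHOP, went from 8.69 to 72.90 FPKM (log2 ratio 3.05) and ATF4 from 406.22 to 1026.75 FPKM (1.34). KLF6, an activator of CDKN1A, had a log2 ratio of 0.71 and MDM2, a ubiquitin ligase, one of 0.56. TP63, named after its values were seen, was the other of the 3 past 2-fold (log2 ratio 1.84). It was low, went from 0.69 to 2.73 FPKM and passed the filter only through the library where it was higher. MYC, which can repress CDKN1A, had a log2 ratio of 0.49.

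CDKN1B was the dominant CIP/KIP inhibitor. CDKN1B, which encodes p27 (ENSG00000111276.10, forward strand of chromosome 12 from 12715058 to 12722371), was listed at 63.36 FPKM without Dox and 87.51 FPKM with Dox, a log2 ratio of 0.47 (counting interval 0.42 to 0.51). Its RNA was 58.7-fold as abundant as that of CDKN1A per length without Dox and 29.7-fold with Dox. The third family member, CDKN1C, which encodes p57, stood at 1.0 and 1.85 FPKM. The CDKN1B transcript of 2657 bases held between 94.0% and 95.2% of its FPKM in untreated cells and between 98.1% and 98.5% in the Dox library. Of 12 genes for the turnover of D cyclins and p27, 0 were past 2-fold, beside 23.4% of all genes tested. The median log2 ratio of the 12 was 0.05, or -0.27 with TMM factors. Within that list, SKP2, the F-box protein that targets p27, went from 25.09 to 41.81 FPKM (log2 ratio 0.73), and FBXO4 went from 9.88 to 18.02 FPKM (0.86). RBX1 and CUL1, subunits of the same kind of ubiquitin ligase, had log2 ratios of -0.80 and -0.53.

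CDKN2A had the highest level per length of the 10 genes in both libraries. In counts it had 11141 without Dox and 9658 with Dox, below CCND2 (36455 and 41911) and CDK6 (29624 and 37431). CDKN2A (ENSG00000147889.17, reverse strand of chromosome 9 from 21967753 to 21995301) was listed at 367.27 FPKM without Dox and 272.08 FPKM with Dox, above 98.0% and 97.6% of the genes with at least 1 FPKM. Its log2 ratio was -0.43 (counting interval -0.47 to -0.39). The gene encodes the INK4 protein p16 and, from a separate first exon and another reading frame, ARF, which restrains MDM2. RefSeq gives it promoter windows at chr9:21974858-21975107 and chr9:21995325-21995574 (GRCh38.p14, reverse strand). The tables give 1 value for all 14 listed transcripts, so the p16 and ARF RNAs cannot be told apart, and the mean length went from 903.57 to 974.15 bases. Of the Polycomb genes that silence the locus, BMI1 was listed at 401.94 and 540.55 FPKM and EZH2 at 71.12 and 106.89 FPKM, whereas RNF2, named after its value was seen, was lower with Dox, at 16.89 and 13.01 FPKM. CBX7, another of them, went from 4.69 to 10.28 FPKM and was the 1 of 7 listed regulators of CDKN1B and CDKN2A past 2-fold, a share near the 17.0% of all genes tested. FOXO1, an activator of CDKN1B, had a log2 ratio of 0.73, and the median of the list was 0.43.

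CDKN2C, which encodes the INK4 protein p18 (ENSG00000123080.10, forward strand of chromosome 1 from 50960745 to 50974633), was at the limit of detection, with 0 counts without Dox and 2 counts with Dox. A count of 0 allows up to 0.0358 FPKM without Dox, and no fold is given since both counts are under 3. It was the 1 gene of the 10 that did not pass the filter. FAF1, which starts 482 bases away on the other strand, was likewise near 0, with 7 and 6 counts and 0.05 FPKM in both libraries. Of the 11 other protein-coding genes of the tables within 1 Mb of CDKN2C, those on the FAF1 side (DMRTA2, ELAVL4 and AGBL4) were listed at 0.05 FPKM or less. On the other side, C1orf185 had 0 counts, and RNF11, 261638 bases away, was listed at 4.10 and 6.38 FPKM. EPS15, 379630 bases away, was listed at 4.34 and 7.80 FPKM, and OSBPL9 and NRDC stood at 86.09 and 152.77 FPKM without Dox, while TTC39A and RAB3B stayed under 1 FPKM. A run of genes from AGBL4 to C1orf185 was thus at or near 0, and the DNA was not measured. Of these genes, those other than FAF1, RNF11 and EPS15 were looked up after values were seen.

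The INK4 genes outside the members differed in direction from CDKN2A. CDKN2B, which encodes p15 and lies beside CDKN2A, went from 23.53 to 49.51 FPKM, a log2 ratio of 1.07, just past the limit. CDKN2D, which encodes p19, went from 3.58 to 12.32 FPKM, a log2 ratio of 1.75 (counting interval 1.51 to 2.06). All 4 genes listed as other CDK inhibitors (these 2, CDKN1C and CDKN3, the last of neither family) had an FPKM log2 ratio above 0. Of these, 2 lay past 2-fold, and the median was 0.95. Of all 14859 genes tested, 8673 had a ratio above 0 and 17.0% lay past 2-fold on the higher side, with a median of 0.15. CDKN1C, at 1.0 and 1.85 FPKM, was close to the filter limit. CDKN2A RNA was 15.6-fold as abundant as CDKN2B RNA per length without Dox and 5.50-fold with Dox. In counts the ratios were 4.8 and 1.66. MTAP, on the other side of CDKN2A, had a log2 ratio of -0.34, and the antisense CDKN2B-AS1, which overlaps CDKN2A by 524 bases, one of 0.73. Strand-specific counting is not stated, so reads in that overlap cannot be assigned to 1 strand.

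RB1 (ENSG00000139687.15, forward strand of chromosome 13 from 48303726 to 48599436), the substrate of these kinases, had 2579 counts and 12.34 FPKM without Dox and 4842 counts and 22.10 FPKM with Dox. Its log2 ratio was 0.84 (counting interval 0.77 to 0.91), short of 2-fold. The transcript of 4793 bases held 98.4% or more of it in both libraries. CDKN2A RNA was 29.8-fold as abundant as RB1 RNA per length without Dox and 12.3-fold with Dox. In counts the ratios were 4.32 and 1.99. RBL1, the related pocket protein p107, had a log2 ratio of 0.79, close to that of RB1, whereas RBL2, p130, named after its value was seen, had one of 0.25. The neighbours ITM2B and MED4 had log2 ratios of 0.33 and -0.07, and LPAR6, within RB1 on the other strand, was listed with 2 and 0 counts. Of the 9 tested chromosomal neighbours of the members, 0 were past 2-fold, beside 23.4% of all genes tested, and the median was 0.35. The 2 overlapping genes tested, TSPAN31 and CCND2-AS1, had a median of 0.79 in FPKM. CCND2-AS1 had a log2 ratio of 0.90 in FPKM but 1.57 in CPM and 1.39 with TMM factors, past 2-fold, and it passed the filter only through the Dox library.

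Of the 9 members tested, CDKN1A alone lay past 2-fold on the higher side and CCND3 alone on the lower. Among all genes tested, 17.0% lay past 2-fold on the higher side with Dox, 6.41% on the lower side and 23.4% on either, so that 72.6% of those past 2-fold were higher; with TMM factors that share was 57.4%. The median log2 ratio was 0.18 for the members and 0.15 for all genes tested. The study called its genes with edgeR, which cannot estimate a spread from 1 library per condition. When the coefficient of biological variation was set to 0.2, its exact test, which compares these 2 libraries and not the conditions, called 1 of the 9 members it tested, CCND3, beside 15.5% of 19934 genes at an FDR of 0.05. With a coefficient of 0.4 it called 0 of the 9, beside 0.833% of genes. CCND3 and CDKN2A were lower and CDK6, CDKN1A, CDKN1B and RB1 higher under each scaling, pseudocount and filter tried that kept them, and CCND2 and CDK4 turned their sign. CCND1 had a log2 ratio of -0.60 in FPKM and -0.03 in CPM, and its longest transcript one of 0 to 0.14.

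E2F targets, which lie downstream of the members, had mostly negative log2 ratios. Of 14 E2F targets of the G1 to S step, 10 had a log2 ratio below 0 and 4 above, with a median of -0.43 beside 0.15 for all genes tested, and 1 lay past 2-fold downward and 0 upward. Of all genes tested, 41.5% had a log2 ratio below 0 and 6.41% lay past 2-fold downward. With TMM factors 3 of the 14 targets lay past 2-fold downward (RRM2, TYMS and MCM4), beside 9.11% of all genes tested. The 1 gene by FPKM was RRM2, a ribonucleotide reductase subunit, which went from 565.09 to 250.42 FPKM (log2 ratio -1.17). TYMS, the thymidylate synthase, had a log2 ratio of -0.94, and MCM2 and MCM4, subunits of the replicative helicase, had ratios of -0.84 and -0.57. Of the 8 tested E and A cyclins, kinases and activators, 0 were past 2-fold, beside 23.4% of all genes tested, with a median of -0.17. CCNE1, which encodes cyclin E1, went from 21.83 to 13.56 FPKM (log2 ratio -0.68) and CDK2, its kinase, from 54.40 to 38.60 (-0.49). CCNH and MNAT1, partners of CDK7 in the kinase that activates CDKs, had log2 ratios of 0.62 and 0.49.

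The E2F factors themselves showed no shared direction. Of the 12 pocket proteins and E2F factors, 0 were past 2-fold and the median was 0.07, or -0.08 with TMM factors, with E2F1 at 0.49, E2F7 at 0.51 and TFDP1, the dimer partner, at -0.58. Of 8 cycling markers, 6 had a log2 ratio below 0, and the list median was -0.15. CCNB1, which encodes cyclin B1, went from 205.39 to 96.82 FPKM (log2 ratio -1.08) and was the one past 2-fold, whereas PLK1, MKI67 and CCNB2 had ratios of -0.37, -0.29 and -0.20. In bulk RNA, fewer cells in a phase and less RNA per cell cannot be told apart. Over all 12 lists, 90 genes were tested, 6 of them past 2-fold on the higher side with Dox and 4 on the lower, with a median of 0.08, beside 17.0% and 6.41% of all genes tested. With TMM factors, 7 lay on the higher side and 8 on the lower, beside 12.3% and 9.11% of all genes tested.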

How the data were processed

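RNA of 2 libraries was measured, 1 per condition. Per the labels, poly(A) RNA gave paired reads of 150 bases (NovaSeq 6000), and the submitters' processing notes name Bowtie 0.12.2, HISAT2 2.1.0, StringTie 1.3.4d and hg19. The authors deposited expected counts per gene (14.5% and 15.4% not whole), TPM and FPKM in tables laid out as RSEM writes them, with mean transcript lengths. The tool that counted is not given in the sources used here. Of 204675 listed transcripts, 202888 carry identifiers of GENCODE release 29, whose positions are on GRCh38 and not on hg19.

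Log2 ratios used FPKM with a pseudocount of 0.1 over the 14859 genes with at least 1 FPKM in 1 library. Calls are ratios past 2-fold. Expected counts were rounded for edgeR 4.0.16 (at least 10 counts over both libraries, FDR 0.05) and DESeq2 1.42.0 in R 4.3.3. Intervals are exact binomial (Clopper-Pearson), 95%. Python 3.11.15, pandas 2.3.3, numpy 2.4.6, scipy 1.17.1 and matplotlib 3.10.9 served for the rest. Members, lists and motifs were chosen with earlier results of these data known. Named list genes were mostly the up to 4 with the largest ratio among those with at least 5 FPKM in 1 library; for the lists of translocation genes, other inhibitors, neighbours and overlapping genes any gene could be named, and TP63, MYC, RBL2, RNF2 and genes around CDKN2C were added after their values were seen. The ratio, call and interval steps were tested on simulated data. Alternatives covered pseudocount, filter, scaling, length and the assumed coefficient.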

Additional observations from a re-analysis of the deposited data

How the results depend on the processing

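No paired analysis was possible because each condition holds a single library. The bounds for the longest transcript were an alternative added after seeing the data. The number of members past 2-fold, 2, was again 2 with a pseudocount of 0.01, no filter, CPM, TMM factors and DESeq2 size factors. It was 0 with a pseudocount of 1, 1 with at least 5 FPKM (which removes CDKN1A and CCND1), 1 with TPM, 0 by edgeR with an assumed coefficient of 0.4 and 1 with 0.2. The ratio of CDK4 over CDK6 reversed without length correction, from 3.33 and 3.30 to 0.315 and 0.289. The share of CCND2 moved from 82.7% and 90.0% to 93.6% and 96.5% in counts, and without Dox to 80.9% to 81.1% with the longest transcripts of CCND1 and CCND2. The median of all genes moved from 0.15 to 0.25 in TPM and to -0.04 and -0.03 with TMM and size factors, and the genes higher with Dox from 72.6% to 57.4% of those past 2-fold with either set of factors. List genes past 2-fold numbered 10 (6 higher, 4 lower), and 15 with TMM factors (7 higher, 8 lower). Depth limits CDKN2C and leaves CDKN1A with 95 counts in 1 library.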
